A study of Mus musculus with 8 samples.

Results

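Molecular chaperones and folding factors were followed in EGFP-sorted cells that were taken at E12.5 from the vertebral column of mouse embryos, in 4 HOMO and 4 WT arrays. The genes were chosen by symbol alone: heat shock proteins of the Hsp90, Hsp70, small Hsp and Hsp60/Hsp10 families, their Dnaj co-chaperones, the CCT chaperonin, Bag proteins, and the Fkbp and cyclophilin prolyl isomerases. This rule found 48 genes among the 8102 genes that could be named on the array: 2 of the Hsp90 family, 6 of the Hsp70 family, 1 small Hsp, 3 of the Hsp60 and Hsp10 group, 25 Dnaj genes, 3 of the CCT group, 2 Bag, 3 Fkbp and 3 cyclophilin genes. The list holds 1 gene annotated as a pseudogene, Hspe1-ps2. Hsph1, Hspa1a, Hspa1b, Hspa4, Dnajb1, Hsp90b1, Cct2, Cct5, Tcp1, Ppib, Fkbp1a, Bag1 and Bag3 were not analysed here.

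In HOMO cells EGFP replaced Sox9, which encodes a master transcription factor of cartilage, on both alleles. HOMO embryos die before this stage, so chimaeric embryos were used for that group. In WT cells EGFP followed an intact Sox9 through an internal ribosome entry site. The labels call the genotype WT, while the series description speaks of heterozygous embryos that express EGFP. The study gives the control embryos as heterozygous for the EGFP reporter allele of Sox9, so both wordings can describe the same embryos. Both groups share the strain C57BL/6J;129, the stage, the dissection and the sort for EGFP, whose expression runs from the Sox9 locus in both. Only the HOMO cells came from chimaeric embryos, so chimaerism and genotype cannot be told apart. Sox9 itself had no named probe and was not analysed here, so the targeted gene gave no check of the labels. The array was an Illumina WG-6, whose version differs between the labels and the methods of the study.

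The arrays of the groups differed in overall brightness, and this bears on every value below. Mean intensity was 7.88 ± 2.43 on HOMO arrays and 329 ± 33.1 on WT arrays (SD, n = 4 each), a 41.7-fold difference. Of all probes, 18.3% ± 2.22 were detected on HOMO arrays and 44.8% ± 0.85 on WT arrays. Brightness, detection and genotype cannot be told apart, since the brightest HOMO array was dimmer than the faintest WT array. In a bulk sample, fewer cells of a type and less RNA per cell cannot be told apart either. Intensity here is the deposited background-subtracted brightness of a probe, which can be below 0. Level is log2 of the quantile-normalized intensity, which places a probe relative to the other probes of its array. A gene could thus have a far lower intensity but a higher level on the HOMO arrays. A probe was kept if it was detected on at least 3 of the 8 arrays. It was called if limma gave an adjusted p of at most 0.05.

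Chaperones bind unfolded or partly folded proteins and help them reach or keep their native state. Hsp70 proteins act in cycles of ATP hydrolysis that Dnaj (Hsp40) proteins stimulate and nucleotide exchange factors such as Bag proteins reset, and Hsp90 takes over clients such as kinases and steroid receptors. Hsp60 with its lid Hsp10 folds proteins inside mitochondria, CCT folds actin and tubulin in the cytosol, and Hspa5 (BiP) serves the endoplasmic reticulum, through which the collagens of cartilage matrix pass. Prolyl isomerases of the Fkbp and cyclophilin families speed a slow step of folding, and some bind Hsp90 through tetratricopeptide repeats. Heat shock factors induce many of these genes through heat shock elements, repeats of an nGAAn unit in alternating orientation. Genes of the endoplasmic reticulum carry endoplasmic reticulum stress elements.

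Promoter windows of 300 bases (250 before and 50 after the start, RefSeq, build GRCm38.p6) were matched for 34 of the 48 genes and searched on both strands. A heat shock element of 3 units, which alternate between GAA and TTC with 2 bases between units, was present in 0.603% of the 32851 windows. By gene, it was present in 0.662% of 27025 genes. Among the chaperones it was found in 3 of the 34, Hspd1, Hspe1 and Dnajb6, which are all shown. The first 2 lie head to head on a shared promoter. The endoplasmic reticulum stress element, CCAAT and CCACG with 9 bases between them, was present in 0.119% of windows and 0.137% of genes. Among the chaperones it was found in Hspa5. The shorter heat shock element of 2 units, GAANNTTC or TTCNNGAA, of which the longer motif is an extension, was in 15.1% of windows and in 11 of the 34 genes. The sequences follow, 5′ to 3′ on the strand of the gene, with a match of the motif in capitals.
Hspd1 (chr1:55088051-55088080, minus strand): ggccttccgGAAGGTTCTAGAAcggaccgt
Hspe1 (chr1:55088055-55088084, plus strand): tccgttctaGAACCTTCCGGAAggccccgc
Dnajb6 (chr5:29735843-29735872, plus strand): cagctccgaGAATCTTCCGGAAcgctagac
Hspa5 (chr2:34772019-34772048, plus strand): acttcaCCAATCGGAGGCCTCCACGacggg
The Hspd1 and Hspe1 windows read the same stretch of DNA from opposite strands. In both, the lower-case ttc that stands 2 bases before the capitals is a further unit, part of an overlapping match. A match is a description of these letters and not a measured binding site.

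Of the 48 genes, 37 had a kept probe, and 11 did not. On HOMO arrays 20 to 24 of the 48 were detected, against 35 to 37 on WT arrays. With values below 0 taken as 0, the 48 genes took 0.517% ± 0.044 of summed intensity on HOMO arrays and 0.75% ± 0.022 on WT arrays (SD, n = 4 each). For 35 of the 37 kept genes (94.6%) every HOMO intensity lay below every WT intensity, as it did for 95.9% of the 4890 kept named genes. The exceptions were Dnaja1 and Dnajb9. Detection was not even across the list. On no HOMO array were 12 of the 37 detected (43.4% of named genes), and on all 4 HOMO arrays 17 were (31.4% of named genes).

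**Figure D1:**
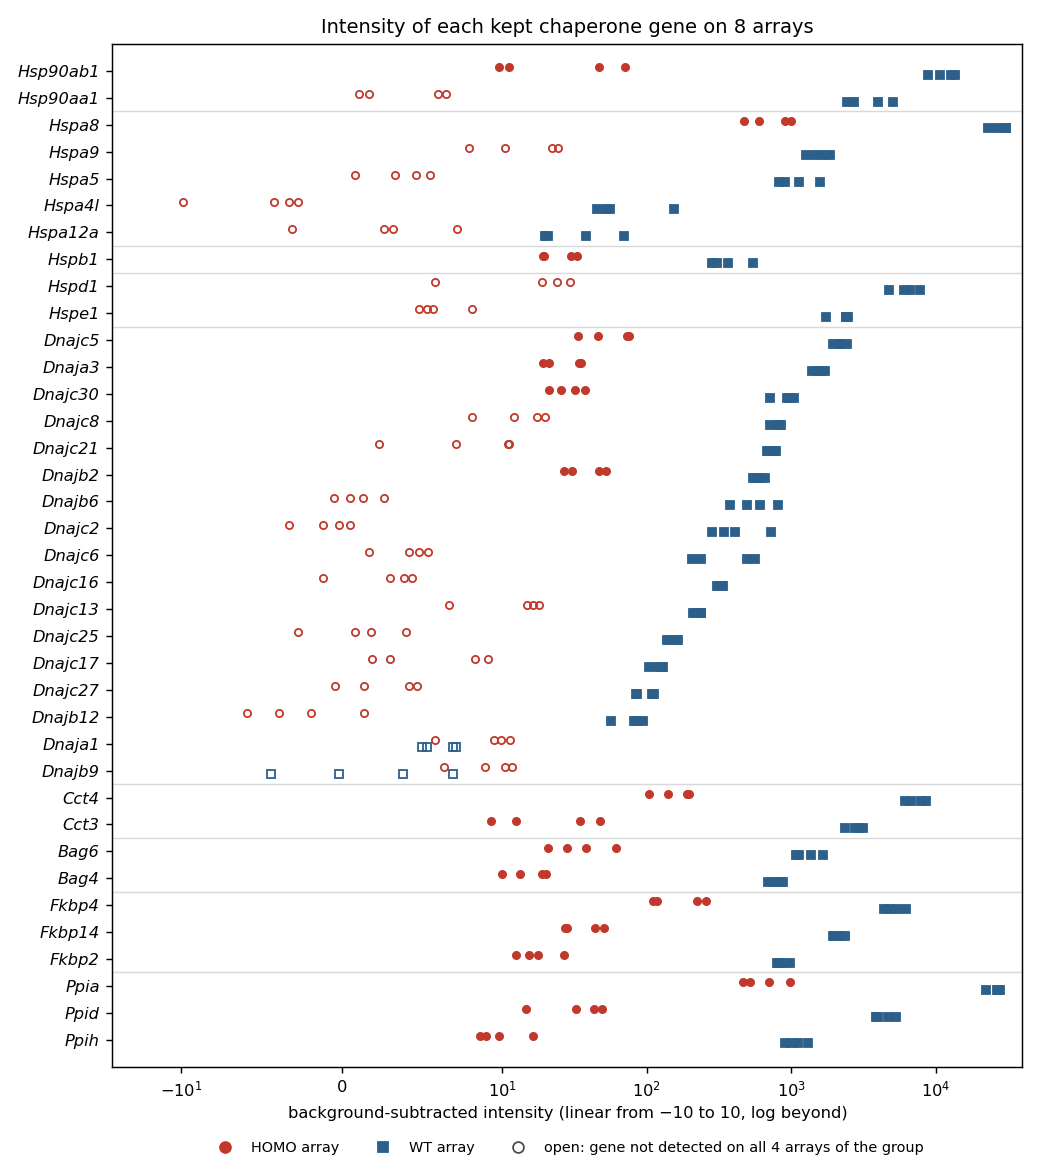
Background-subtracted intensity (linear from −10 to 10, logarithmic beyond) of the 37 kept chaperone genes, by family, with 4 HOMO arrays as red circles above 4 WT arrays as blue squares. Open symbols mark genes not detected on all 4 arrays of a group, and in 35 of 37 genes all HOMO circles lie to the left of the WT squares.

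On the normalized scale 19 of the 37 genes were called lower in HOMO cells, 9 higher and 9 not called (limma, Benjamini-Hochberg over 20989 probes). Of all kept probes 48.5% were called lower and 24.8% higher, 73.3% in either direction. Of named genes, each by its brightest kept probe, 50% were called lower and 22.2% higher. HOMO levels lay all below WT levels for 19 chaperones (48.2% of named genes) and all above for 8 (21% of named genes). On this scale, with probes kept at 3 of 8 arrays, the shares of the list were near those of the array. Of the 37, 12 were detected on no HOMO array (43.4% of named genes) and were kept through WT alone, so the filter favoured a lower call. Dnaja1 and Dnajb9 were kept through HOMO alone. Among probes detected on all 8 arrays, 6 of 17 chaperones were lower and 6 higher, beside 15.5% and 56.8% of all such probes. The median log2 difference was -0.53 for the 37 genes, against -0.56 for all kept probes and -0.66 for named genes. With genes undetected in either group set at their bound, or at 0 where they had none, it was -0.28, against 0 for named genes. That 0 is set by this rule, so it is no contrast to the list. The split depended on the scaling. With median centring 27 chaperones were lower and 7 higher, beside 45.3% and 45% of all kept probes, with a median of -1.94 for the list and -0.0010 for all probes. With scale normalization 11 were lower and 17 higher, beside 26.5% and 40.5% of all kept probes. In the authors' normalized values 31 were lower and 2 higher, beside 70.6% and 15.6%. Scale normalization divides each array's centred log2 values by their spread, which stretches the narrow HOMO arrays, so differences on that scale are not log2 folds and only their sign and call are used below.

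**Figure D2:**
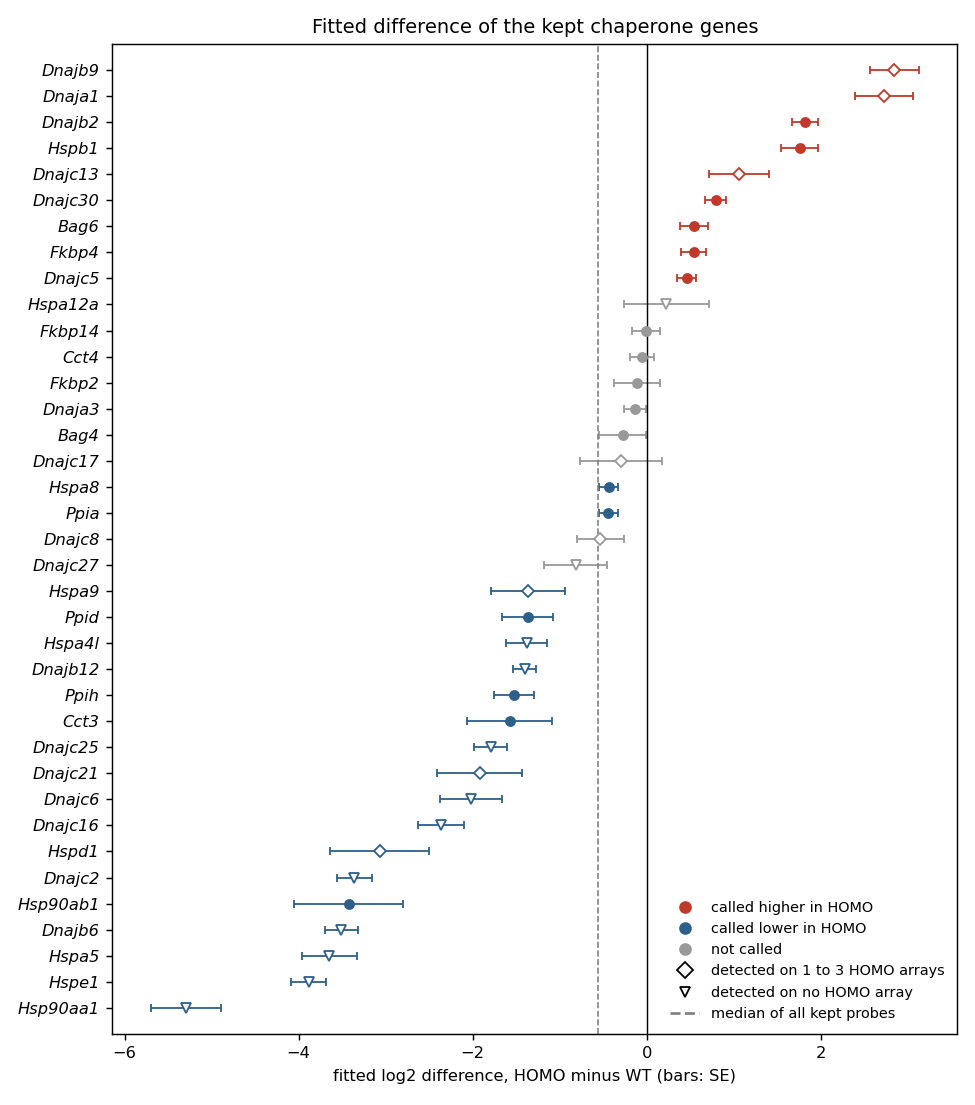
Fitted log2 difference, HOMO minus WT, with its SE, for the 37 kept chaperone genes, ordered by difference. Diamonds and triangles mark genes detected on some or no HOMO arrays, whose value there is in part or wholly background, and the dashed line is the median of all kept probes (-0.56).

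Hsp90aa1, the stress-inducible cytosolic Hsp90, was at the low end of the order. Its intensity was 6.0, 1.1, 1.7 and 6.5 on the HOMO arrays, against 3989.3, 5047.0, 2450.3 and 2746.0 on the WT arrays (replicates 1 to 4). It was detected on no HOMO array and on every WT array, and the groups did not overlap. Its fold is therefore a bound, the WT mean level set against the lowest level of any detected probe on each HOMO array: Hsp90aa1 was at least 12.97-fold lower (adjusted p = 5.66e-06, limma). HOMO intensity was below 0.235% of WT, taking the faintest detected intensity on the HOMO arrays (8.35 ± 0.47, SD, n = 4) as the limit. A second, dimmer probe of Hsp90aa1 had -9.6, -11.7, -3.9 and -5.6 on HOMO arrays, against 178.0, 424.7, 81.2 and 117.9 on WT arrays. It was detected on no HOMO array either, and was called lower (adjusted p = 2.18e-04) without a fold bound, as its WT level did not exceed the faintest detected level in HOMO. The third probe, also undetected on HOMO arrays, had 3.7 to 7.7 there and -2.6 to 28.7 on WT arrays. That probe was called higher on the normalized scale (1.34, adjusted p = 0.00366), although its level in HOMO was not measured.

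The constitutive Hsp90ab1 had 3 probes that disagreed. The brightest had intensities of 70.3, 9.8, 11.1 and 46.6 on HOMO arrays, against 12782.1, 13567.4, 8910.0 and 10714.5 on WT arrays, or 0.30% of WT. Its level averaged 9.11 ± 1.44 in HOMO and 12.53 ± 0.14 in WT (log2, SD, n = 4), a difference of -3.42 (SE 0.63, adjusted p = 0.00122). The HOMO arrays spread widely here, with replicates 1 and 4 above replicates 2 and 3. With scale normalization the difference of this probe was positive and not called. The third probe stood at 0.310% of WT, with a difference of -3.12 (SE 0.39, adjusted p = 1.14e-04). The second probe, in contrast, had 630.5, 381.4, 279.1 and 529.0 on HOMO arrays, against 9859.8, 9676.1, 7701.6 and 8812.9 on WT arrays, or 5.05% of WT, and was called higher (0.83, SE 0.10, adjusted p = 1.34e-04).

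This disagreement does not depend on scaling between arrays, since each array holds both probes. The log2 ratio of the second to the first Hsp90ab1 probe ran from 3.16 to 5.28 on HOMO arrays and from -0.49 to -0.21 on WT arrays. The mean ratio differed by 4.49 (exact permutation test over 8 arrays, two-sided, p = 0.0286, the smallest it can give, and 0.0381 adjusted over 4 such comparisons). The ratio of the second to the third probe differed by 4.09 (p = 0.0286, exact permutation test, adjusted 0.0381), where the third probe was detected on 3 of the 4 HOMO arrays, so its ratio on HOMO replicate 3 uses an undetected value. The ratio of the third to the first differed by 0.40 and did not pass (p = 0.4, exact permutation test). On HOMO arrays that last ratio ran from -1.65 to -0.08, and on WT arrays from -1.37 to -1.25. The 4 pairs, of Hsp90ab1 and Hspa8, were picked with these intensities known, from 7 genes with several probes. Probes were ranked by brightness in the same data, and the Hsp90ab1 ratios share probes. The p-values of the ratios are therefore descriptive. Where these probes lie on the transcript was not analysed here.

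**Figure D3:**
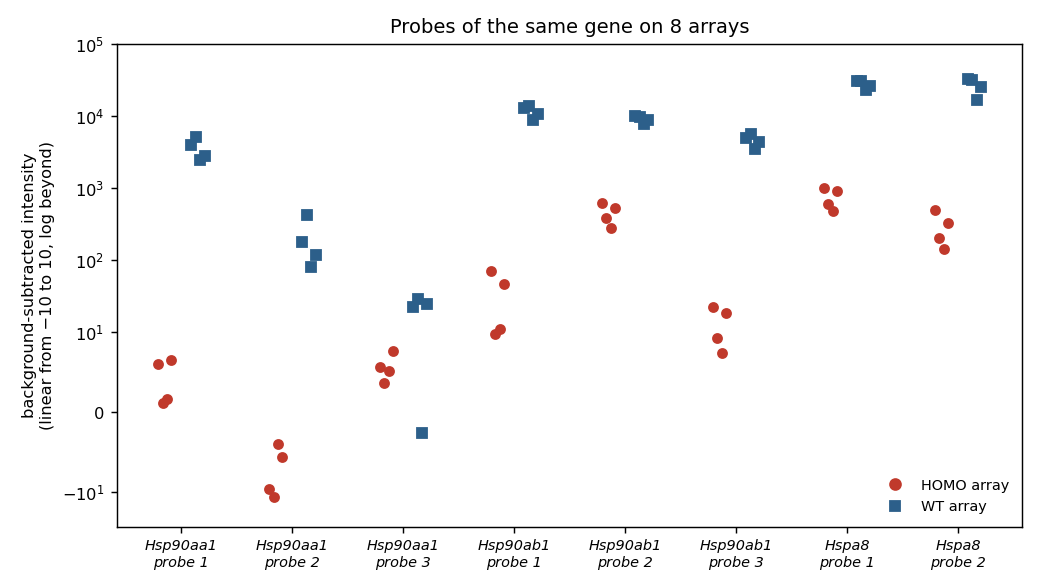
Background-subtracted intensity (linear from −10 to 10, logarithmic beyond) of each probe of Hsp90aa1, Hsp90ab1 and Hspa8, with 4 HOMO arrays (red circles) left of 4 WT arrays (blue squares). The second Hsp90ab1 probe stays at 279.1 to 630.5 on HOMO arrays, where the first is at 9.8 to 70.3.

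In the Hsp70 family 4 of 5 kept genes were called lower, of which Hspa8 and Hspa9 turned positive with scale normalization (Hspa8 called, Hspa9 not) and Hspa4l with median centring (0.69), and Hspa12a was not called. Hspa8, the constitutive cytosolic Hsp70, had intensities of 992.3, 603.1, 474.5 and 900.7 on HOMO arrays, against 30820.3, 30656.5, 23116.2 and 26515.4 on WT arrays. It was detected on every array and stood at 2.67% ± 0.88 of WT (SD over 4 HOMO arrays), with a level of 13.39 ± 0.06 in HOMO and 13.82 ± 0.08 in WT (difference -0.44, SE 0.11, adjusted p = 0.00661). A second Hspa8 probe stood at 1.11% of WT (difference -1.23, SE 0.19, adjusted p = 4.21e-04). The ratio of the first to the second differed by 1.33 log2 units between the groups (p = 0.0286, exact permutation test, adjusted 0.0381).

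Hspa5, the Hsp70 of the endoplasmic reticulum, had intensities of 0.8, 4.6, 3.3 and 5.5 on HOMO arrays, against 1135.6, 1580.7, 830.8 and 911.5 on WT arrays. It was undetected on every HOMO array and at least 4.17-fold lower (adjusted p = 1.22e-05). Hspa9, the mitochondrial Hsp70, had 24.3, 7.9, 10.4 and 22.0 on HOMO arrays, against 1668.1, 1853.3, 1267.4 and 1474.9 on WT arrays, or 1.03% ± 0.52 of WT. Its difference was -1.36 (SE 0.43, adjusted p = 0.0187), and -0.94 (adjusted p = 0.0135) without HOMO replicate 2, its faintest array. Hspa4l, of the Hsp110 group of nucleotide exchange factors, had -9.9 to -2.7 on HOMO arrays, against 45.1 to 155.2 on WT arrays. It was called lower (adjusted p = 8.12e-04), but its WT level was no higher than the faintest detected level in HOMO, so the size of its fall was not measured. Hspa12a, an atypical member, had -3.1 to 7.2 on HOMO arrays, against 19.9 to 69.7 on WT arrays (adjusted p = 0.685).

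Both kept genes of the mitochondrial chaperonin were low. Hspd1, which encodes Hsp60, had intensities of 29.4, 18.8, 5.8 and 24.1 on HOMO arrays, against 6638.2, 7823.2, 4784.6 and 6075.9 on WT arrays, or 0.308% ± 0.160 of WT. Its difference was -3.07 (SE 0.56, adjusted p = 0.00123). HOMO replicate 3, where Hspd1 was not detected, was the lowest of its group, and without it the difference was -2.43 (adjusted p = 3.63e-06). With scale normalization the Hspd1 difference was still negative but no longer called. Hspe1, which encodes Hsp10, the lid of the Hsp60 barrel, had 8.1, 5.3, 5.7 and 4.8 on HOMO arrays, against 2466.7, 2393.4, 1755.1 and 2387.2 on WT arrays. It was at least 8.49-fold lower (adjusted p = 8.02e-07). These are the genes of the shared promoter printed above, and on neither did the groups overlap.

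The CCT genes differed from each other. Cct4 had intensities of 194.9, 140.6, 103.2 and 189.0 on HOMO arrays, against 6114.0, 8604.0, 6796.7 and 7924.1 on WT arrays, or 2.13% ± 0.59 of WT. Its levels overlapped between groups and it was not called (difference -0.05, SE 0.14, adjusted p = 0.739). Cct3, another subunit of the same ring, had 9.3 to 47.3 on HOMO arrays, against 2956.6, 3167.5, 2343.6 and 2775.9 on WT arrays, or 0.923% ± 0.646 of WT. Cct3 was called lower (difference -1.58, SE 0.49, adjusted p = 0.0182), although it was positive with scale normalization (not called). Its HOMO arrays fell into a brighter pair, replicates 1 and 4 (47.3 and 34.7), and a fainter pair. Those are also the HOMO arrays with the higher mean intensity, 10.5 and 9.26, against 6.55 and 5.21 for replicates 2 and 3, and the part of array brightness in the values was not tested.

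Among the 17 kept Dnaj genes, which hand clients to Hsp70 and stimulate its ATPase, 7 were called lower, 6 higher and 4 not called. All 4 named genes called higher with WT detection (Dnajb2, Dnajc13, Dnajc30 and Dnajc5) turned negative after median centring and in the authors' values, and Dnajb12, called lower, turned positive with median centring (0.56). Of the 17 genes, 7 were detected on no HOMO array. Dnajb6, which suppresses protein aggregation, had intensities of -0.5, 2.6, 0.5 and 1.3 on HOMO arrays, against 610.4, 809.5, 378.4 and 496.5 on WT arrays, and was at least 2.20-fold lower (adjusted p = 9.34e-07). Dnajc2, a ribosome-associated co-chaperone, had -3.3 to 0.5 on HOMO arrays, against 282.0 to 725.5 on WT arrays, and was at least 1.69-fold lower (adjusted p = 1.59e-06). A second Dnajc2 probe was detected on 1 HOMO array and on no WT array and was not kept. Dnajb12, a membrane protein of the endoplasmic reticulum, had -5.9 to 1.4 on HOMO arrays, against 56.8 to 93.9 on WT arrays, and was called lower without a fold bound (adjusted p = 2.38e-05).

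Dnajb2, a neuron-enriched co-chaperone, had intensities of 47.0, 30.3, 26.9 and 52.0 on HOMO arrays, against 659.4, 549.1, 601.5 and 579.1 on WT arrays. That was 6.54% ± 2.06 of WT, and its level was higher in HOMO, at 10.15 ± 0.15 against 8.32 ± 0.22 in WT (difference 1.82, SE 0.15, adjusted p = 9.75e-06). Dnajc13, an endosomal protein, stood at 6.18% ± 2.22 of WT, with 6.7 to 18.0 on HOMO arrays and 210.8 to 238.0 on WT arrays. Its difference of 1.06 (SE 0.35, adjusted p = 0.0228) was lost without HOMO replicate 2 (0.91, adjusted p = 0.0567), HOMO replicate 4 (0.89, adjusted p = 0.0561) or WT replicate 2 (0.98, adjusted p = 0.0631). Dnajc30, a mitochondrial protein, stood at 3.16% ± 0.79 of WT (difference 0.79, SE 0.12, adjusted p = 4.02e-04), and its dimmer second probe was not kept. Dnajc5, the cysteine string protein of synaptic vesicles, stood at 2.61% ± 0.94 of WT (difference 0.46, SE 0.11, adjusted p = 0.00608). Dnaja3, a mitochondrial co-chaperone, stood at 1.74% ± 0.53 of WT and Dnajc8, a splicing-associated protein, at 1.79% ± 0.66, and neither was called.

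The other Dnaj genes are given by count. Dnajc6, Dnajc16, Dnajc21 and Dnajc25 were called lower, and Dnajc17 and Dnajc27 were not called. Dnajc6, the neuronal auxilin that uncoats clathrin vesicles, was singled out after its values were seen. It had 1.7 to 5.4 on HOMO arrays, and on WT arrays it was high on replicates 1 and 2 (495.7 and 566.5) and low on replicates 3 and 4 (207.5 and 239.7). Dnaja1 and Dnajb9, also singled out after their values were seen, were called higher. Dnaja1 had 11.4, 9.5, 9.9 and 5.8 on HOMO arrays and 5.0, 6.9, 5.3 and 7.1 on WT arrays. Dnajb9 had 11.6, 10.4, 8.9 and 6.4 on HOMO arrays and -4.4, -0.2, 6.9 and 3.8 on WT arrays. Each was detected on 3 HOMO arrays and on no WT array, but the faintest detected intensity was 8.35 ± 0.47 on HOMO arrays and 17.6 ± 0.85 on WT arrays (SD, n = 4 each), so the intensities seen on the HOMO arrays could not have counted as detected on a WT array.

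Hspb1, the small heat shock protein that holds unfolded proteins without ATP, had the highest share of WT intensity among the 21 chaperones detected on at least 3 arrays of each group. It had 33.1, 19.6, 19.2 and 29.8 on HOMO arrays, against 543.1, 285.5, 308.2 and 365.7 on WT arrays, or 6.77% ± 1.89. Its level was higher in HOMO (9.43 ± 0.15, against 7.67 ± 0.40 in WT), a difference of 1.76 (SE 0.21, adjusted p = 9.23e-05). In the authors' values (-0.37) and after median centring (-0.37) Hspb1 was negative and not called.

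All 3 cyclophilins, prolyl isomerases, were called lower, but with scale normalization Ppia and Ppid were called higher and Ppih lost its call. Ppia, the abundant cytosolic cyclophilin A, had 983.0, 519.4, 463.8 and 699.5 on HOMO arrays, against 27104.3, 28119.7, 22305.7 and 26613.9 on WT arrays, or 2.56% ± 0.90 of WT (difference -0.44, SE 0.11, adjusted p = 0.00617). Ppid, the cyclophilin that binds Hsp90, stood at 0.780% ± 0.339 of WT, with 49.0, 32.2, 14.7 and 43.4 on HOMO arrays, against 4010.5, 5297.0, 3854.8 and 4686.5 on WT arrays. Its difference was -1.37 (SE 0.29, adjusted p = 0.00274). Ppih, a cyclophilin of the spliceosome, stood at 1.0% ± 0.33 of WT (difference -1.52, SE 0.23, adjusted p = 3.84e-04).

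Of the 3 Fkbp genes none was called lower, although all 3 were negative and called lower after median centring and in the authors' values. Fkbp4, the Fkbp that binds Hsp90 in steroid receptor complexes, had 256.0, 117.8, 110.9 and 222.5 on HOMO arrays, against 5443.0, 6273.6, 4421.0 and 4862.8 on WT arrays, or 3.37% ± 1.40 of WT, and was called higher (0.54, SE 0.14, adjusted p = 0.00734). Ppid and Fkbp4, both Hsp90 co-chaperones with tetratricopeptide repeats, were thus called in opposite directions on the quantile-normalized scale, though not with median centring or in the authors' values. Fkbp14, an isomerase of the endoplasmic reticulum that acts on collagen, stood at 1.77% ± 0.55 of WT (difference -0.01, adjusted p = 0.961), and Fkbp2 at 2.08% ± 0.71 (difference -0.11, adjusted p = 0.706). Bag6, which guides membrane proteins to the endoplasmic reticulum, stood at 2.80% ± 1.34 of WT and was called higher (0.55, SE 0.16, adjusted p = 0.0155), but was negative with median centring and in the authors' values. Bag4 stood at 1.97% ± 0.60 of WT and was not called (difference -0.28, adjusted p = 0.373).

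The share of WT intensity orders genes without any normalization between arrays. Over the 21 chaperones detected on at least 3 arrays of each group it ran from 0.30% (Hsp90ab1) to 6.77% (Hspb1), with a median of 2.08%. Over 1841 named genes detected in the same way the median was 2.61% (quartiles 1.61% and 4.85%). Each gene stands there by its brightest probe, and the second Hsp90ab1 probe, at 5.05%, would place that gene near the high end. Hsp90ab1, Hspd1, Ppid, Cct3, Ppih and Hspa9 formed the low end, and Hspb1, Dnajb2 and Dnajc13 the high end. Neighbours such as Hspa8 (2.67% ± 0.88), Dnajc5 (2.61% ± 0.94) and Ppia (2.56% ± 0.90) had close values. The SD runs over HOMO arrays of unequal brightness, so it does not measure differences between genes, which were not tested. A dim gene enters this comparison only with a high share, since it has to be detected on HOMO arrays.

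**Figure D4:**
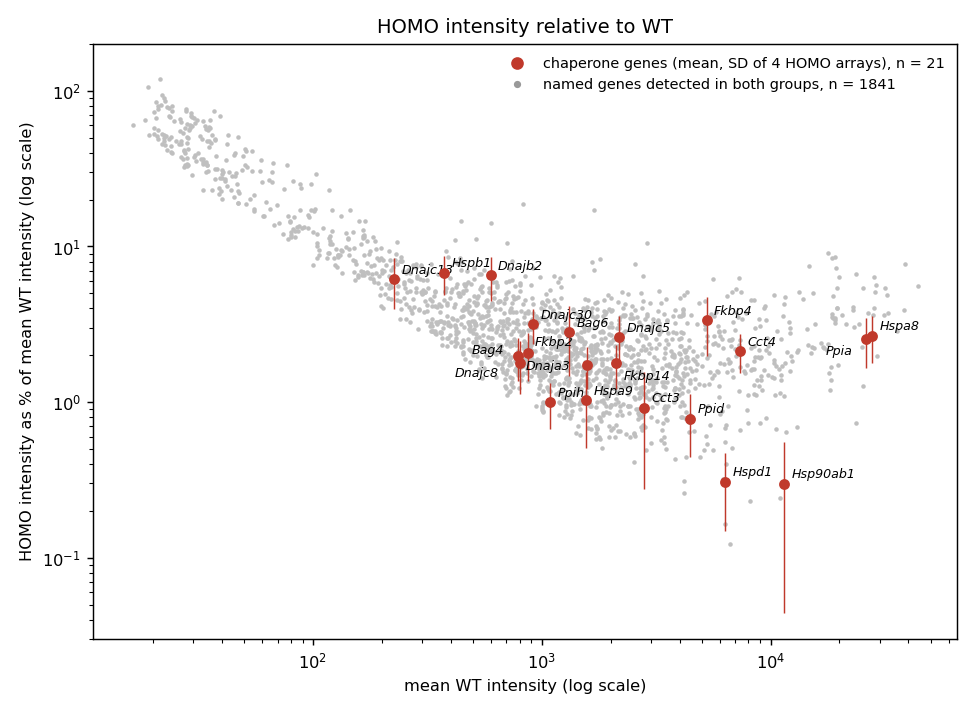
HOMO intensity as a percent of the mean WT intensity (log axis) against mean WT intensity (log axis), for 21 chaperone genes (red, mean with the SD of 4 HOMO arrays) and 1841 named genes (grey). Hspd1 and Hsp90ab1 (by its brightest probe; its second probe was at 5.05%) lie at 0.308% and 0.30%, at the lower edge of the grey cloud, and the empty lower left corner holds genes too dim to be detected on HOMO arrays.

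Among genes bright in WT (mean intensity of at least 1000, a limit chosen after the values were seen), 17 chaperones were set beside 1195 named genes. Of these 17, 3 were detected on no HOMO array (Hsp90aa1, Hspa5 and Hspe1), against 7.03% of bright named genes, and 12 were detected on all 4 HOMO arrays, against 74.1%. Lower calls went to 11 of the 17 (45% of bright named genes) and higher calls to 3 (20.8%). With undetected genes at their upper limit, the median share of WT intensity was 1.03% for the 17, against 1.59% (quartiles 0.900% and 2.49%), and 6 chaperones lay under the lower quartile and 5 over the upper one. These values are descriptive, and the difference between the lists was not tested.

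Other genes of protein folding and its stress responses were taken from a list of 69, of which 24 had a probe and 22 were kept. Of these, 13 were called lower, 4 higher and 5 not called, beside 50% of named genes lower and 22.2% higher, and the median difference was -0.62, against -0.66 for named genes. With scale normalization 7 were lower and 11 higher, beside 26.5% and 40.5% of all kept probes. Median centring gave 20 lower and 1 higher, beside 45.3% and 45%. The authors' normalized values gave 21 lower and 1 higher, beside 70.6% and 15.6%. St13 (Hip), which stabilizes the ADP-bound state of Hsp70, had -4.6 to -1.0 on HOMO arrays, against 871.6 to 1410.1 on WT arrays, and was at least 4.63-fold lower (adjusted p = 1.40e-07). Ptges3, the Hsp90 co-chaperone p23, had 0.1 to 4.4 on HOMO arrays, against 1254.2 to 2510.5 on WT arrays, and was at least 6.28-fold lower (adjusted p = 1.70e-06). Ahsa2, of the Hsp90 ATPase activator family, was at least 1.31-fold lower (adjusted p = 9.69e-05). Ptges3 and Ahsa2 were detected on no HOMO array. By their brightest probes, the Hsp90 cofactors Chordc1 (1.53% of WT) and Cdc37l1 (2.57% of WT) were detected on all 4 and not called. Both were singled out after their values were seen. A second, dimmer Cdc37l1 probe was detected on no HOMO array (-7.9 to -2.9) and on every WT array (159.9 to 302.4). The HOMO levels of Chordc1 all lay below its WT levels (difference -0.24, adjusted p = 0.076, limma).

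Grpel2, a mitochondrial nucleotide exchange factor, and Hsf2, a heat shock factor, were called lower without a fold bound (adjusted p = 1.31e-06 and 5.86e-06). Hsf1, another heat shock factor, singled out after its values were seen, was detected on every array and stood at 2.60% of WT. On the quantile-normalized scale Hsf1 was called higher (0.41, adjusted p = 0.0145, limma). Nktr, a cyclophilin-domain protein, was detected on 1 HOMO array and was called lower (-1.88, adjusted p = 9.85e-04). Pfdn2, a subunit of prefoldin, which passes actin and tubulin to CCT, stood at 4.59% ± 1.5 of WT. It was called higher (1.02, SE 0.11, adjusted p = 4.95e-05), but was negative with median centring and in the authors' values. Other prefoldin subunits, singled out after their values were seen, differed from it. Pfdn4 (-2.77, detected on 1 HOMO array) and Vbp1 (-1.05) were called lower, and Pfdn5 (0.31) was not called. Canx, a lectin chaperone of the endoplasmic reticulum, had 14, 17.2, 18.4 and 20.3 on HOMO arrays, against 25.8, 13.7, 25.8 and 21.3 on WT arrays. Its intensities overlapped between groups, at 80.7% of WT, and its call as higher (3.90, adjusted p = 5.53e-06) holds on the normalized scale alone. Serpinh1 (Hsp47), the collagen chaperone, which was singled out after its values were seen, stood at 2.99% ± 1.27 of WT and was not called (0.14, adjusted p = 0.421).

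Cell type markers moved with the groups and among the arrays. Sums of intensity over a marker list take values below 0 as 0. Of the cartilage and sclerotome genes that mark the labelled tissue, 7 of 11 had a probe: their summed intensity was 185.1 to 319.0 on HOMO arrays and 18176.9 to 24480.8 on WT arrays, and 3 of the 7 were detected on no HOMO array. Col2a1, the collagen that defines cartilage, had 37.9, 15, 3.8 and 18.6 on HOMO arrays, against 7593.4, 7091.1, 7581.1 and 10366.8 on WT arrays. Pax1, a sclerotome transcription factor, made up most of each HOMO sum, with 238.3, 181.7, 151.6 and 218.8 on HOMO arrays, against 2555.5, 2500.3, 2378.2 and 2759.3 on WT arrays. It stood at 7.75% of WT and was called higher on the normalized scale (1.81, adjusted p = 8.61e-06). Pax1 was the only marker of this list called higher. On that scale Col2a1 (-3.85), Col9a1 (-4.37) and Sox5 (-1.06) were called lower. Col9a2 and Sox6, detected on no HOMO array, were also called lower, and Col11a1 was not called. Neuron markers, 4 of 5 with a probe, summed to 24.2 to 28.7 on HOMO arrays, with 1 of the 4 detected on none. On WT arrays they summed to 5334.1, 7561.1, 2170.6 and 2606.6 for replicates 1 to 4. WT replicates 1 and 2 were thus above replicates 3 and 4. They were so for Hsp90aa1 and Dnajc6, and also for Hsp90ab1, Hspa8 and Hspd1, but not for Cct4 or Fkbp14. Replicates 1 and 2 were also the WT arrays with the higher mean intensity (340 and 364, against 285 and 326). On the normalized scale Dcx, Elavl3 and Nefm were called lower in HOMO and Tubb3 was not called. The part of neuronal cells in the chaperone values was not tested.

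Erythroid markers, 3 of 6 with a probe and none absent from the HOMO arrays, summed to 26.0 to 650.6 on HOMO arrays and 2000.1 to 5934.1 on WT arrays. They were lowest on HOMO replicate 3, which was also the dimmest array. Endothelial markers, 2 of 5 with a probe, both detected on at least 1 HOMO array, summed to 13.9 to 22.6 on HOMO arrays and 61.1 to 220.3 on WT arrays. Macrophage markers, 3 of 4 with a probe, of which 2 were detected on no HOMO array, summed to 4.5 to 10 on HOMO arrays and 25.2 to 91.7 on WT arrays. On the normalized scale the markers of these 3 lists did not all fall. Eng (1.66, adjusted p = 4.87e-04, limma) and Hbb-b1 (0.90, adjusted p = 0.00449), detected on all 4 HOMO arrays, were called higher in HOMO. Pecam1 and Lcp1 were also called higher, but each was detected on only 1 HOMO array. Cd68, detected on no HOMO array, was called lower, and Hba-a1 and Hbb-y were not called. The part of erythroid, endothelial and macrophage cells in the chaperone values was not tested.

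Limits of single genes remain. Ppia, Hspa8, Hspe1 and Hsp90ab1 have processed pseudogenes whose transcripts a probe could also bind, and probe sequences were not used here. The 2 Dnajc16 probes were both called lower, and the 2 Dnajc19 probes were both undetected on all arrays. Of the 11 genes without a kept probe, 10 are named here for completeness: Cct8l1, Dnaja2, Dnajb4, Dnajc1, Dnajc10, Dnajc11, Dnajc19, Dnajc22, Dnajc28 and Hspa13, and none of them was detected on more than 1 array. The other was the pseudogene Hspe1-ps2.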

How the data were processed

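Total RNA of sorted cells was hybridized to 8 Illumina WG-6 arrays. The authors' non-normalized table, from GenomeStudio (version not given in the sources used here), holds background-subtracted intensity per probe. A detection p-value was deposited with each intensity; it grows with brightness and was therefore read as 1 minus p. The deposited normalized table and value table hold log2 values; up to 1 constant per probe they equal log2 intensities floored at 1 and centred on the array median. The value table's column medians were 0.956 to 0.999 in HOMO and -0.206 to 0.014 in WT.

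Genes were named from zero-padded NCBI gene numbers in the value table: of 16082 rows with such a number 9796 had a symbol in RefSeq. These rows were joined to the other tables by equal rows of 8 values (8407 rows). Each gene was represented by its brightest probe.

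Intensities were background-corrected with normexp (limma 3.58.1, R 4.3.3, offset 16), quantile-normalized and taken to log2. Probes with a detection value above 0.95 on at least 3 of 8 arrays were kept (20989, without control probes). HOMO was compared with WT by limma's lmFit and eBayes, two-sided, with Benjamini-Hochberg adjustment over all kept probes, at 0.05. A probe undetected on all arrays of a group is given as a bound. Ratios of probes of 1 gene were compared with exact permutation tests (scipy 1.17.1). The procedure was tested on simulated data.

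Named genes were Hsp90aa1, every chaperone detected on at least 3 arrays of each group, up to 3 further genes per family and 8 partners by smallest p. The members and lists were chosen with earlier results of these data known. The methods state 4 biological replicates per group. The number of arrays limits precision. Alternatives were other scalings, background handling, filters and tests, a replicate block, and leaving out each array.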

Additional observations from a re-analysis of the deposited data

Results flagged for a closer look

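In 8 of the 58 groups of 4 arrays tested, the highest or lowest array stood apart from the others by Dixon's criterion, which chance meets in about 1 in 20 groups. Among HOMO arrays, Bag4 was low on replicate 2, at a level of 7.604 against 8.629 to 8.839 on the others. Hspb1 was also low on HOMO replicate 2, at 9.202 against 9.496 to 9.524. Ppid was low on HOMO replicate 3, at 8.85 against 10.05 to 10.15. Hspd1 was low on HOMO replicate 3 too, at 6.66 against 9.098 to 9.358, with an intensity of 5.8 that did not count as detected.

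Among WT arrays, Cct4 was low on replicate 1, at 11.58 against 11.95 to 12.00. Hspa4l was high on WT replicate 2, at 6.462 against 5.462 to 5.489, with an intensity of 155.2. Dnajc8 was low on WT replicate 2, at 8.578 against 8.767 to 8.786, and Dnajb12 was low on WT replicate 3, at 5.683 against 5.896 to 5.919.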

How the results depend on the processing

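The direction of many calls depended on how arrays of unequal brightness were scaled. The median shift of all probes was -0.56 as reported, -0.0010 with median centring, 0.24 (rescaled units) with scale normalization and -1.83 in the authors' normalized values. The higher share of all called probes was 33.8% as reported, 49.9% with median centring, 60.5% with scale normalization, 18.1% in the authors' values, 44.6% without the detection filter and 78.6% among probes detected on all 8 arrays. Over 37 named genes and 20 alternatives, 663 results kept their direction and side of the threshold, 14 passed it anew, 6 no longer passed it and 37 reversed. Hsp90aa1, Hspa5, Hspe1, Dnajb6 and Dnajc2 stayed called lower in each alternative that kept them. The causes of the changes below were not tested.

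With median centring the members' median was -1.94. Reversed differences were Bag6 -1.84, Dnajb12 0.56, Dnajb2 -0.65, Dnajc13 -0.20, Dnajc30 -1.53, Dnajc5 -2.08, Fkbp4 -1.94, Hspa4l 0.69, Hspb1 -0.37 and Pfdn2 -1.47. With scale normalization 11 members were lower and 17 higher, and the members' median was 0.77 in rescaled units. Scale normalization stretches the HOMO arrays, so its differences are in rescaled units and are not log2 folds. Reversed differences in those units were Bag4 0.90, Cct3 1.15, Cct4 11.04, Ppia 19.50, Ppid 2.51, Dnaja3 2.52, Dnajc8 0.54, Fkbp14 3.77, Fkbp2 1.34, Hspa8 20.15, Hspa9 0.31 and Hsp90ab1 0.77. In the authors' normalized values 31 members were lower and 2 higher, and the members' median was -2.37. Reversed differences were Bag6 -1.74, Dnajb2 -0.47, Dnajc13 -0.60, Dnajc30 -1.49, Dnajc5 -1.82, Fkbp4 -1.46, Hspa12a -0.025, Hspb1 -0.37 and Pfdn2 -0.99. Relative to that table's own median shift, Dnajb2 (1.36), Dnajc13 (1.24) and Hspb1 (1.47) were higher. With intensities floored at 1, Hspa12a was -0.39.

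Among probes detected on all 8 arrays, where 17 members could be tested, 12 members were called, 6 of them lower, with a median of -0.11. The counts there were 7 for partners and 3679 for all probes. With a detection value above 0.99 the members' median was -1.09. Quantile normalization of log2 values, chosen after seeing the data, gave 19 lower and 9 higher. Leaving out each array gave 27 to 29 members called, 19 to 20 lower and 8 to 9 higher, a median of -0.65 to -0.45, 15 to 17 partners called and 14294 to 15583 probes called. The difference of Fkbp14 reversed without HOMO replicate 2 (0.05), WT replicate 3 (0.070) or WT replicate 4 (0.05), Fkbp2 without HOMO replicate 2 (0.091, against a lowest value of -0.33) and Hspa12a without HOMO replicate 2 (-0.26), all uncalled.

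The replicate numbers did not pair the samples: deviations of same-numbered arrays correlated at -0.033 to 0.028. With the replicate number as a block, 9768 probes were lower and 5030 higher, and 28 members were called, 19 lower and 9 higher. Brightness limits what can be measured, since 12 of 37 members had no detected level on any HOMO array.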
